A study of Mus musculus with 2 samples.

Results

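The 90 genes described here were higher by at least 1.5-fold in 4T1 cells kept with oxalate than in 4T1 cells kept with PBS. The 4T1 line comes from a mammary carcinoma of a BALB/c mouse, and oxalate is a small dicarboxylic acid that forms poorly soluble crystals with calcium. The genes were selected on the very values given below: an average of 1 FPKM or more over both libraries and a 1.5-fold rise of FPKM + 1, written below as log2((oxalate + 1)/(PBS + 1)). FPKM counts the sequenced fragments of a gene after division by transcript length and by the size of the library. Of 21911 genes listed, 10267 reached the mean of 1 FPKM, 96 passed both limits, and 6 of these (Stk4, Atp6v0c, Ube2v1, Emp1, Sox12 and Rnf26) are left out here. The 96 genes were 0.935% of the genes compared, and the genes lowered to the same extent were 1.05% of them, or 108 genes. The fold changes are therefore a description of the choice and carry no test.

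The control group was 5000000 4T1 cells given PBS for 48 h, and the treated group was 5000000 4T1 cells given potassium oxalate for 48 h. The labels name no transgene or deletion for either group. The dose is written as 20 mM in the protocol of the labels and as 20 µM in their treatment field and in the study's methods, and it could not be settled from the files. Each condition was 1 library, so no value below has a replicate error, and a difference between the conditions cannot be told apart from a difference between 2 cultures. In a bulk sample, more cells of a kind and more RNA per cell also cannot be told apart.

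The epithelial identity of the cells showed in their markers: 7 of 8 epithelial genes were at 1 FPKM or more, with a summed level of 1525 FPKM for PBS and 1572 FPKM for oxalate. Of 6 leukocyte markers, 4 were at 0 in both libraries, and their sum was 7.83 and 7.11 FPKM, nearly all of it Cd68. The fibroblast markers summed to 147 FPKM in each library, nearly all of it Col1a1, at 143.48 and 144.61 FPKM. Of the other fibroblast markers, Pdgfra was at 1.88 and 1.93 FPKM, and Col1a2, Dcn and Lum were under 1 FPKM in both libraries. The endothelial markers summed to 0.08 and 0.11 FPKM. The depth, estimated from the steps between low FPKM values, was about 56800000 reads for PBS and 36500000 for oxalate. Over all genes compared the median log2 fold change was 0.0031, and 90.1% lay within 1.2-fold.

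In renal epithelium, through which the body clears oxalate, the compound is known for crystal injury, oxidative stress and activation of stress kinases. Cells answer such stresses through known programs: NRF2 switches on antioxidant enzymes, ATF4 and the unfolded protein response adjust protein synthesis, p53 responds to DNA damage, and immediate early genes follow ERK. A gene's level can also change on its own, through its promoter, its splicing or the stability of its mRNA. The raised genes are described below by what their products do, by the genes most related to them, by their place in the genome and by the number of coding transcripts they have.

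Among the raised genes, the log2 fold change ran from 0.592 to 1.87, with a median of 0.76. A difference of 2-fold or more was seen for 24 of them, and the remaining 66 lay between 1.5-fold and 2-fold. Over all genes compared such a rise was seen for 30, or 0.292%, and these include the 24 by construction. All 90 were protein coding. Most were expressed at a moderate level: 24 had a mean FPKM between 1 and 5, 66 had a mean of 5 or more, and 7 reached 50. In the PBS library 8 of them were under 1 FPKM. The estimated reads behind a value had a median of 922 for PBS and 1339 for oxalate.

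**Figure D1:**
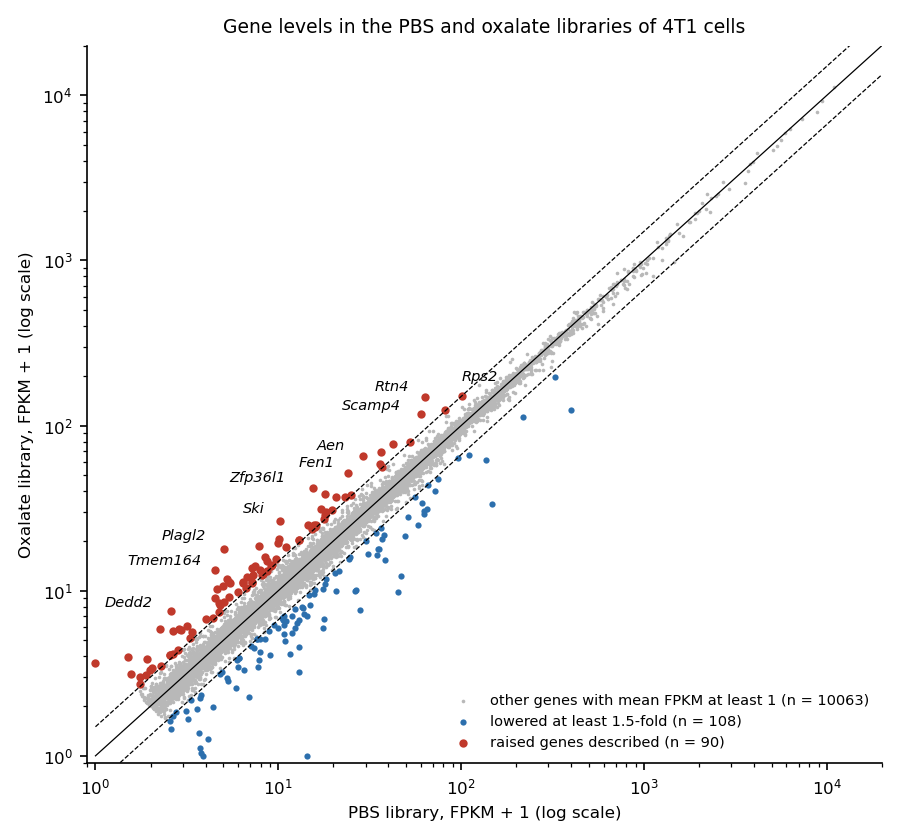
FPKM + 1 of each gene in the PBS library (x axis) and the oxalate library (y axis), both on log scales, with the solid line at equality and the dashed lines at 1.5-fold. The 90 raised genes (red) were chosen for lying above the upper line, and most sit between 1 and 50 FPKM. Of the 967 genes with a mean of 100 FPKM or more, 3 were raised and 3 lowered, and the others drawn lie between the dashed lines (the 6 genes left out are not drawn).

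The limit cut through a continuous range. The genes just inside it were C77080 (0.603), Lgals9 (0.603), Rtn3 (0.599), Rps2 (0.592) and Stx18 (0.592). Those just outside it were Gabpb2 (0.584), Cotl1 (0.579), Hist1h2ao (0.567), Slc25a51 (0.566) and Arhgef3 (0.565).

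Raised genes were a larger share of the genes at low and moderate levels. They were 1.57% of the genes with a mean of 1 to 2 FPKM, 1.04% of those from 2 to 5, 1.58% of those from 5 to 10 and 0.915% of those from 10 to 20. At higher levels the share was 0.57% from 20 to 50 FPKM, 0.35% from 50 to 100 and 0.31% above 100 FPKM. The lowered genes had the same shape, with 2.04% in the lowest range and 0.31% in the highest.

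Transcription factors were the largest group by role, followed by receptors, ligands and secreted proteins with 12 genes. The roles were assigned by hand once the genes were known, so the group sizes are a description. The share of each role among all genes compared was not counted. There were 14 sequence-specific transcription factors, with a median log2 fold change of 0.79, and 8 chromatin proteins or transcription cofactors, also with a median of 0.79. Genes with a symbol beginning with Zfp, Zscan, Zbtb or Zkscan made up 7.78% of the raised genes and 3% of all genes compared, and 6.48% of the lowered genes. This share goes by name only: it holds Zfp36l1, a protein of mRNA decay, and misses the zinc finger factor Plagl2.

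Where a gene is given a pair of FPKM values, the first is from the PBS library and the second from the oxalate library. Plagl2, a zinc finger factor of the PLAG family (ENSMUSG00000051413, chr2:153227759-153241426 on the minus strand of GRCm38), went from 4.07 to 16.96 FPKM. Its log2 fold change of 1.82 was the largest of the 90 among genes detected in both libraries with a pseudocount of 1. With a pseudocount of 0.1 it was 2.03, under the 2.34 of H2-Q1, a gene of low level. Both other PLAG genes were near or at 0: Plag1 was at 0.3 and 0.43 FPKM, and Plagl1 was listed at 0 in both libraries. Zfp292, a large zinc finger protein, stood at 1.25 and 4.9 FPKM. Etv3 and Etv6, repressors of the ETS family, went from 3.48 to 8.02 FPKM and from 6.49 to 13.19 FPKM. Erf, another ETS repressor and the closest paralog of Etv3, was at 80.81 and 75.86 FPKM, and 15 of the 17 ETS factors compared were not raised. The remaining transcription factors with a log2 fold change under 1 included Nr2c2, an orphan nuclear receptor (7.69 to 14.15 FPKM), Gata4, a GATA factor of heart and endoderm (8.17 to 13.18 FPKM), and Sp4, a relative of Sp1 (1.54 to 3.07 FPKM). The other 7 were zinc finger genes of little described function: Zfp707 (4.27 to 10.78 FPKM), Fiz1 (19.67 to 35.72 FPKM), Zscan22, Zmym1, Zfp316, Zfp68 and Zfp629, the last 5 with log2 fold changes between 0.61 and 0.78.

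Ski, a corepressor that binds SMAD proteins and holds TGF-beta signalling in check, went from 9.21 to 25.47 FPKM, or 1.37 on the log2 scale. Suv39h1, which trimethylates histone H3 at lysine 9 in heterochromatin, went from 17.01 to 37.31 FPKM. Bend3, a repressor found at heterochromatin, was at 9.12 and 19.52 FPKM. Pygo2, a reader of methylated H3 that works with beta-catenin, was at 7.45 and 15.04 FPKM. Below these, Kmt2a, the MLL histone methyltransferase, went from 11.93 to 19.22 FPKM, and Supt7l, a subunit of the SAGA coactivator, from 6.2 to 10.31 FPKM. Kdm2b, which recruits a Polycomb complex to CpG islands, and Arid1b, a subunit of the BAF chromatin remodeler, were at the lower end of the group with log2 fold changes of 0.63 and 0.62.

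The 6 genes of RNA, translation and DNA metabolism had the highest median of any group by role, 1.1 on the log2 scale, and 4 of them were higher by 2-fold or more. Zfp36l1, which binds AU-rich elements and marks mRNAs for decay (chr12:80107754-80113013, minus strand, GRCm38), went from 14.47 to 40.79 FPKM. Aen, a nuclease known as a p53 target, went from 27.92 to 64.43 FPKM. Fen1, the nuclease that trims flaps on the lagging strand, was at 23.19 and 50.72 FPKM. Dph6, an enzyme of diphthamide synthesis on the elongation factor Eef2, went from 4.0 to 9.74 FPKM. Ppp1r15a, known as GADD34, which directs a phosphatase to eIF2, was at 8.28 and 13.22 FPKM. Rps2, a protein of the small ribosomal subunit, had the highest mean of all raised genes, with 99.81 and 150.97 FPKM, and lay at the limit.

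The endoplasmic reticulum, the Golgi and vesicles took 10 raised genes, with a median mean level of 37 FPKM, above that of the other groups by role. Rtn4, a reticulon that shapes tubules of the endoplasmic reticulum and is known as Nogo (chr11:29692947-29744331, plus strand, GRCm38), went from 62.45 to 148 FPKM, or 1.23 on the log2 scale. Rtn3, another reticulon and a receptor for autophagy of the reticulum, was at 51.22 and 78.11 FPKM. Retreg3, of the FAM134 family of such receptors, went from 6.21 to 12.77 FPKM. All 3 carry a membrane-bending reticulon domain. They were listed by hand in a wider set, not defined by that domain, with 7 other genes that could be compared. These were Rtn2, Retreg1, Retreg2, Reep5, Atl2, Atl3 and Ckap4, and they were neither raised nor lowered. Golga7, a partner of the enzyme that palmitoylates Ras proteins, went from 35.56 to 67.66 FPKM. Txndc5, a protein disulfide isomerase, was at 80.46 and 123.93 FPKM. Alg11, a mannosyltransferase of N-glycan assembly, went from 1.64 to 4.69 FPKM. The remaining 4 were Scamp4, a secretory carrier membrane protein described with its overlapping genes below, Jmjd8 (4.42 to 10.1 FPKM), Tex2 (17 to 27.66 FPKM) and Stx18, a SNARE of the reticulum (7.7 to 12.11 FPKM).

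**Figure D2:**
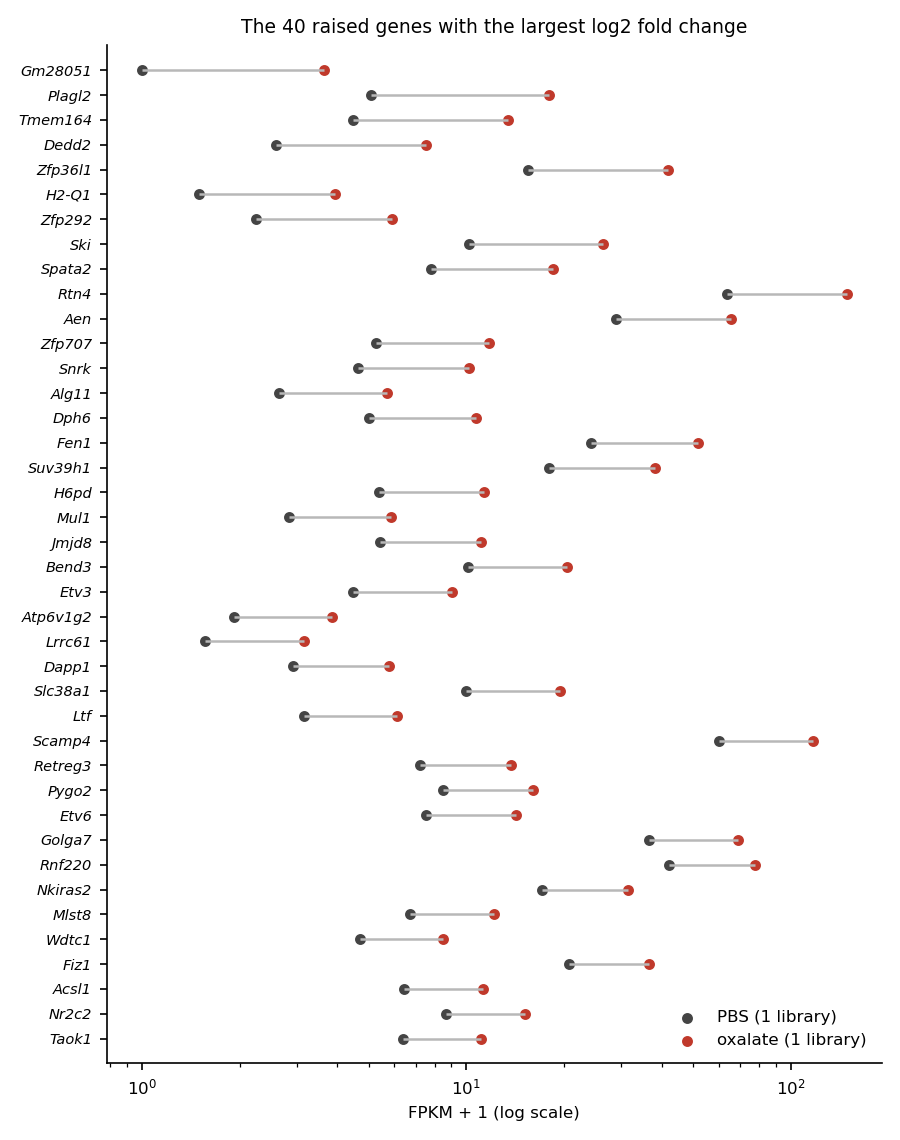
FPKM + 1 on a log scale for the 40 raised genes with the largest log2 fold change, ordered by it, with PBS in black and oxalate in red and 1 library each. The bars for Plagl2, Tmem164 and Dedd2 are the longest among genes detected in both libraries, and Rtn4 and Scamp4 are the furthest to the right.

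Signalling genes were mostly under 2-fold. Of 11 kinases, phosphatases and signal relay genes, with a median of 0.68, only Snrk, a kinase related to AMPK, passed 2-fold (3.64 to 9.2 FPKM). Mlst8, a subunit of both mTOR complexes, went from 5.72 to 11.17 FPKM. Dapp1, an adaptor that binds phosphoinositides, went from 1.93 to 4.79 FPKM, and Nkiras2, which restrains NF-kB, from 16.15 to 30.43 FPKM. Taok1 (5.39 to 10.1 FPKM) and Nek7 (14.62 to 23.91 FPKM) are kinases, the first acting upstream of p38 and the Hippo kinases and the second known for the NLRP3 inflammasome. Ptp4a1, a phosphatase of the PRL family, went from 15.04 to 24 FPKM. Camk2g, a calcium and calmodulin dependent kinase, Elmo2, which activates Rac with DOCK proteins, Rap1gds1 and Slc9a3r2 had log2 fold changes from 0.61 to 0.68.

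The ubiquitin system and cell death gave 7 raised genes, 3 of them past 2-fold. Dedd2, a death effector domain protein, went from 1.59 to 6.49 FPKM. Spata2, which joins the deubiquitinase Cyld to the linear ubiquitin ligase, went from 6.81 to 17.52 FPKM. Mul1, a ubiquitin ligase of the mitochondrial outer membrane, was at 1.85 and 4.87 FPKM. Rnf220, a RING ligase, was the most abundant of the group, at 41.28 and 76.7 FPKM. Wdtc1 (3.72 to 7.47 FPKM), Usp46, a deubiquitinase (6.92 to 12.27 FPKM), and Trim25, the ligase that acts on RIG-I (8.74 to 14.62 FPKM), completed it.

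Tmem164 led the 9 genes of metabolism and transport, a membrane protein gene on the X chromosome (chrX:142681406-142843494, plus strand, GRCm38) that went from 3.49 to 12.41 FPKM, or 1.58 on the log2 scale. H6pd, which makes NADPH inside the endoplasmic reticulum, went from 4.39 to 10.35 FPKM. Nnt, which makes NADPH in mitochondria, was at 1.03 and 2.4 FPKM. The other 7 NADPH genes compared, among them G6pdx (167.21 and 174.27 FPKM), were neither raised nor lowered, and Idh1 had the largest of their log2 fold changes at 0.38. Slc38a1, a glutamine transporter, went from 8.97 to 18.45 FPKM and Acsl1, which activates fatty acids, from 5.41 to 10.29 FPKM. Steap3, an iron reductase, was at 3.4 and 5.86 FPKM, and Ttyh3, a chloride channel family gene, at 10.05 and 17.32 FPKM. Atp6v1g2, a subunit of the V-ATPase (0.92 to 2.86 FPKM), and Ache, acetylcholinesterase (0.88 to 2.08 FPKM), rested on few reads, 44 and 50 in the PBS library.

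Of 12 receptors, ligands and secreted proteins, H2-Q1, a class I gene of the major histocompatibility complex, passed 2-fold, going from 0.5 to 2.94 FPKM. Its closest relative by protein sequence, H2-D1, stood at 109.68 and 116.8 FPKM, and its value is uncertain where reads of such relatives cannot be told apart. Ltf, the iron-binding milk protein lactoferrin, went from 2.15 to 5.13 FPKM. Il6ra, the binding chain of the interleukin-6 receptor, went from 2.37 to 4.63 FPKM, and its signalling partner Il6st was at 47.74 and 51.77 FPKM. Efna1, an ephrin ligand, was at 18.62 and 29.69 FPKM, with its receptor Epha2 at 115.45 and 122.43 FPKM. Lgals9 and Lgals3bp, a galectin and a galectin ligand, had log2 fold changes of 0.60 and 0.79, and Chil1, a secreted chitinase-like protein, one of 0.76. Spn, the leukocyte sialoglycoprotein CD43 (1.56 to 3.07 FPKM), and P2ry12, an ADP receptor of platelets and microglia (1.65 to 3.16 FPKM), were higher while the summed leukocyte markers were 7.83 and 7.11 FPKM. Lrp12, Nlgn2 and Pcdhgc3 lay between 0.65 and 0.74.

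The 4 genes of the cytoskeleton and adhesion, Fblim1, Spire1, Sh3pxd2a and Dmtn, lay between 0.64 and 0.78. Fblim1, a filamin-binding protein of cell-matrix contacts, was the most abundant, at 34.8 and 57.21 FPKM. The 9 predicted or little described genes were Gm28051, Lrrc61, Gm21992, Gm29609, Anxa9, 1810062G17Rik, 1700088E04Rik, Fndc3b and C77080, with a median of 0.65 and a median mean level of 1.66 FPKM. Of these, C77080 was the most abundant at 35.68 and 54.73 FPKM.

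Short lists of well known genes of these stress and growth programs were compared with the raised genes. The 18 lists were written from general knowledge, with earlier results of these data known. Of the genes compared, 409 were in a list, or 3.98%. Of the raised genes, 3 were, or 3.33%, a share near that of all genes. These were Aen among 14 p53 targets compared, Plagl2 among the PLAG factors and Camk2g among 26 genes of calcium handling. The other 13 p53 targets on the list were neither raised nor lowered. Plagl2 was the only gene compared in the PLAG list, so the 3.33% rests in part on a list that describes Plagl2 alone. The lists do not hold every gene of a program, and several raised genes that belong to one are not on them: Atp6v1g2 of the V-ATPase, Ppp1r15a of the ATF4 and unfolded protein response, Taok1 upstream of p38 and Nkiras2 of the NF-kB pathway. Of the genes left out here, Stk4, a Hippo kinase, and Atp6v0c, of the V-ATPase, are not on them either. A list without a raised gene therefore describes its own genes and not the program. With that limit, the lists of 26 NRF2 targets, 22 ATF4 targets, 21 genes of the unfolded protein response, 13 heat shock genes, 28 genes of hypoxia and glycolysis and 27 of cholesterol and fatty acid synthesis held no raised gene. Nor did those of 59 MAPK kinases and phosphatases, 32 ERK response genes, 18 interferon response genes, 36 proliferation genes, 33 genes of the lysosome and V-ATPase, 7 of oxalate and glyoxylate metabolism and 17 known from oxalate-exposed renal epithelium. The NF-kB list of 22 genes and the Hippo list of 20 genes held 1 lowered gene each, Nfkbiz and Tead1, and no raised one. The medians of the lists lay between -0.07 and 0.063, apart from the PLAG list, where Plagl2 was the only gene compared, and the median of all genes compared was 0.0031.

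Close relatives of the raised genes mostly stayed within 1.2-fold. For 58 raised genes a paralog was found by protein alignment, and 39 of these paralogs averaged 1 FPKM or more. None of the 39 was raised, 1 was lowered, and 37 lay within 1.2-fold, with a median log2 fold change of -0.04. Over all genes compared 90.1% lay within 1.2-fold and 0.935% were raised, so that these counts are near the background. Zfp36l2 was at 120.73 and 105.62 FPKM beside Zfp36l1, Suv39h2 at 8.58 and 8.4 FPKM beside Suv39h1, and Usp12, with 88.3% identity to Usp46, at 21.63 and 21.11 FPKM. Nek6, with 85% identity to Nek7, was at 15.57 and 16.57 FPKM. The exceptions were Camk2d, which followed Camk2g with 14.56 and 19.62 FPKM, and Ptp4a2. Ptp4a2 was lower, at 37.04 and 20.68 FPKM or -0.81 on the log2 scale, whereas Ptp4a1, with 87.6% identity to it, was higher by 0.64.

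**Figure D3:**
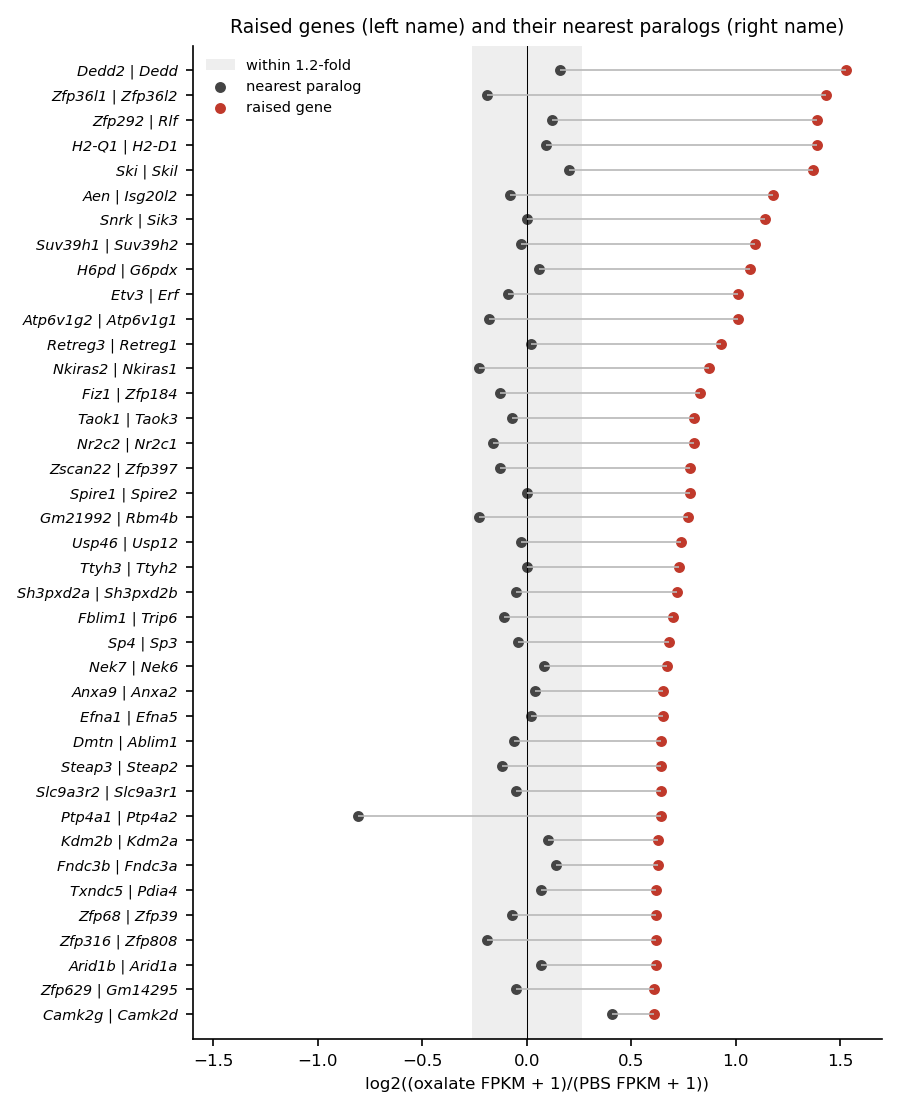
log2((oxalate FPKM + 1)/(PBS FPKM + 1)) of 39 raised genes (red, chosen on this value) and of the nearest paralog of each (black), with the range within 1.2-fold shaded. All paralogs but Ptp4a2 at -0.81 and Camk2d at 0.41 lie in the shaded range.

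Wider families and complexes were listed by hand around the raised genes after these were known. In 38 of them, 43 raised genes stood beside 249 other genes that could be compared, of which 5 were lowered. Every raised gene of a set was counted among the 43, so the 249 hold none of them by construction. With the raised genes thus set apart, the 249 genes had a median log2 fold change of 0.00. Of the 249, 86.3% lay within 1.2-fold, against 90.1% of all genes compared, raised genes included. In 34 of the 38 a lone gene was raised. Dph6 was higher while the other diphthamide enzymes lay between -0.11 and 0.23. Fen1 was higher while Lig1, Pcna and Pold1, with which it works in replication, stood at 76.1 and 75.91, at 187.1 and 200.78 and at 49.53 and 53.36 FPKM. Ppp1r15a was higher while Ppp1r15b, Atf4 and Ddit3 had log2 fold changes of 0.02, -0.1 and 0.09. Rps2 was higher while the 31 other small subunit genes ran from -0.37 to 0.35.

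In 5 of these sets a raised gene stood beside a lowered one. Deptor, the inhibitory subunit of the mTOR complexes, went from 10.91 to 4.52 FPKM beside Mlst8. Atxn7l3, of the deubiquitinase module of SAGA, went from 26.83 to 6.59 FPKM beside Supt7l. Dpy30, a core subunit shared by the KMT2 enzymes, went from 70.69 to 39.23 FPKM beside Kmt2a. Sp2 (23.57 to 15.02 FPKM) stood beside Sp4, and Ptp4a2 beside Ptp4a1. The 5 lowered genes were 2.01% of the 249, against 1.05% of all genes compared.

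**Figure D4:**
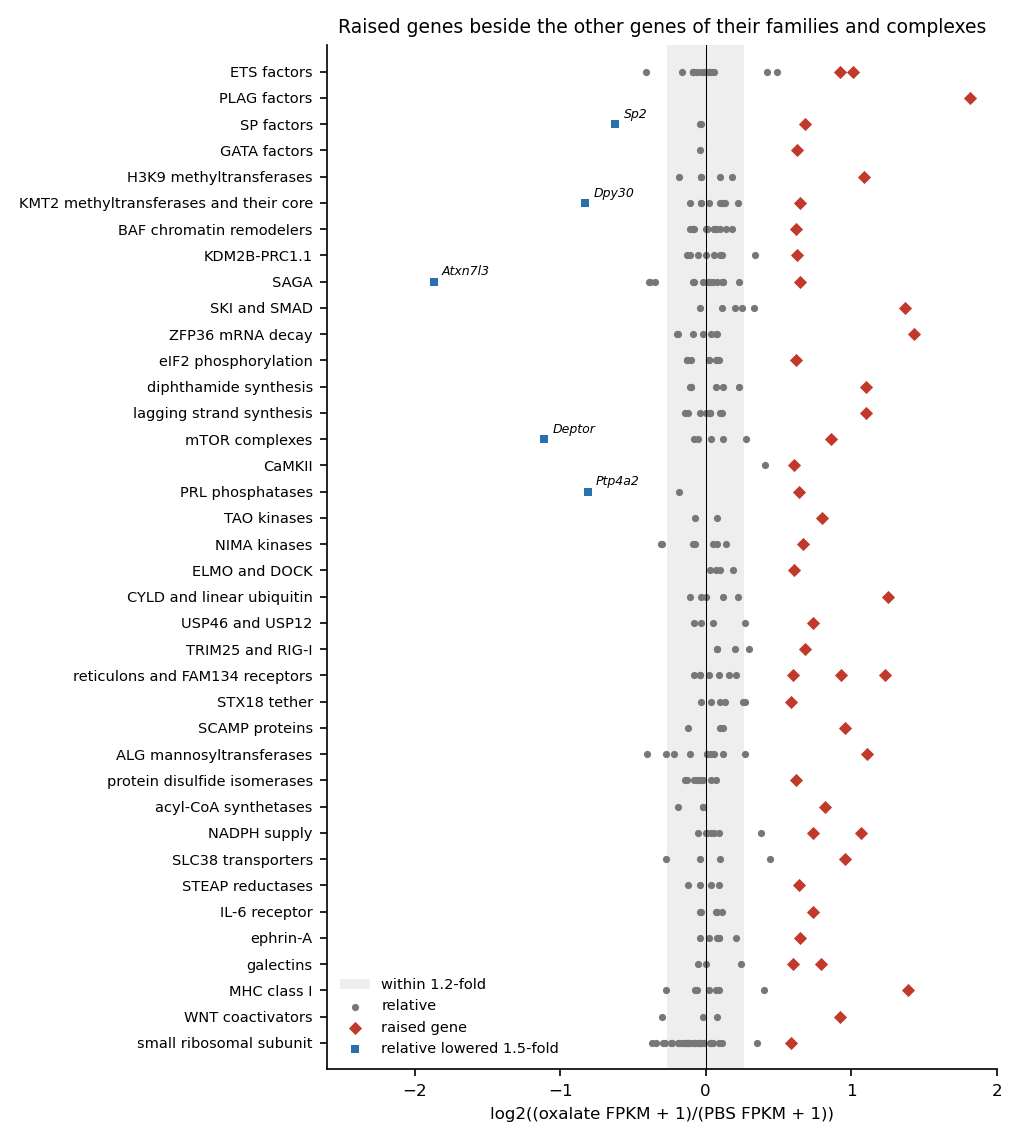
log2((oxalate FPKM + 1)/(PBS FPKM + 1)) of the genes compared in 38 families and complexes, with raised genes as red diamonds (chosen on this value), other genes in grey and lowered genes as blue squares. In most rows a lone diamond stands right of the shaded range, and the blue squares are Sp2, Dpy30, Atxn7l3, Deptor and Ptp4a2.

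The raised genes were spread over the genome. They lay on 19 chromosomes, with 10 on chromosome 3, or 2% of the genes compared there, 9 each on chromosomes 4, 5 and 11, and 0 of 325 on chromosome 16. Another raised gene lay within 1 Mb for 14 of the 90, or 15.6%, whereas a raised gene lay within 1 Mb of 17.5% of the genes that were neither raised nor lowered and of 19.4% of the lowered genes. Mlst8 (chr17:24473551-24479078), Slc9a3r2 (chr17:24639286-24650327) and Rps2 (chr17:24718116-24721929) formed the tightest group of 3, and Efna1 (chr3:89271733-89281142), Pygo2 (chr3:89430214-89435128) and Il6ra (chr3:89864059-89913196) formed another, all in GRCm38. The median log2 fold change of all genes compared within 1 Mb of Rps2 was 0.042, and that around Pygo2 was -0.013.

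The nearest compared gene on either side of each raised gene gave 180 genes, of which none was raised and 7 were lowered. Over all genes compared 0.935% were raised, so that the lack of a raised neighbour is near the background. The lowered share was 3.89%, against 1.05% of all genes compared, and 83.9% lay within 1.2-fold, against 90.1%. Their median log2 fold change was -0.012. Both Adat3 and Gm49322 overlap Scamp4, and their values are given with it. Fam83h, 25225 bases from Zfp707, was at 64.12 and 30.04 FPKM, and Pomgnt2, 120156 bases from Snrk, was at 12.43 and 6.99 FPKM. 3110009E18Rik lay 2568 bases from Steap3, at 1.64 and 0.74 FPKM. Zc3h11a, at 16.52 and 4.91 FPKM, lay 520796 bases from Chil1, and B430218F22Rik, at 2.14 and 0.88 FPKM, lay 947324 bases from Nnt, so that these are neighbours only among the genes compared.

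The exons of Scamp4 (chr10:80602872-80615783, plus strand, GRCm38) overlap those of both of its lowered neighbours. Scamp4 went from 59.31 to 116.28 FPKM. Gm49322, which shares 72.1% of the exon bases of Scamp4 on the same strand, went from 5.95 to 1.27 FPKM, and Adat3, a subunit of a tRNA adenosine deaminase that shares 5.49% of them, went from 5.46 to 2.31 FPKM. Reads from shared exons can be given to either gene, so these 3 values are uncertain. How much of the change in Scamp4 came from this assignment was not tested.

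Exons of another listed gene on the same strand overlapped those of 5 raised genes, or 5.56%, against 3.52% of all genes compared and 9.26% of the lowered genes. Annotated genes that are not listed were left out of these counts. Gm28051 (chr12:102719975-102757765, minus strand, GRCm38), with a transcript of 445 bases, was listed at 0 with PBS and at 2.65 FPKM with oxalate, about 43 reads. It shares 50.6% of its exon bases with Gm20604 (2.94 and 2.67 FPKM) and with Gon7 (3.93 and 3.56 FPKM). Gm21992 (0.76 to 2 FPKM) shares exon bases with Rbm14 and Rbm4, at 82.17 and 84.08 FPKM and at 9.15 and 8.53 FPKM. Gm29609 (0.99 to 2.33 FPKM) shares 72% of its exon bases with Gtf3c2, which went from 83.33 to 113.14 FPKM. Pcdhgc3 (17.27 to 28.75 FPKM) shares its last exons with the other gamma protocadherins, all of which were under 1 FPKM in both libraries. The values of these genes depend on how reads were divided, and they are uncertain.

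A listed gene on the opposite strand overlapped the exons of 22 raised genes, or 24.4%, against 18.8% of all genes compared. Whether strand was used in counting is not given in the sources used here, so reads of such pairs may mix. Jmjd8 shares 39.3% of its exon bases with Stub1, at 80.77 and 82.62 FPKM, and Nr2c2 shares 30.7% with Mrps25, at 14.28 and 10.95 FPKM. Zfp524, opposite Fiz1, was at 5.52 and 8.5 FPKM, a log2 fold change of 0.54. Among the raised genes, only Rps2 had near-identical copies elsewhere in the annotated transcripts, at 95% identity or more over at least 50% of the transcript. Of these 27 copies 26 are annotated as processed pseudogenes, and Rps2-ps6 stood at 43.54 and 42.85 FPKM and Gm6576 at 5.1 and 6.24 FPKM. Nnt and Ptp4a1 each overlap a second annotated gene of the same symbol that is not in the table analysed here.

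Few of the raised genes had a lone coding transcript. Of the annotated transcripts, those annotated as protein coding were counted. Only 5 of the 90 raised genes, or 5.56%, had 1 annotated coding transcript, against 25.5% of the 10261 compared genes found in the annotation. The 5 were Gm28051, Gm29609, Pcdhgc3, Ptp4a1 and 1810062G17Rik, and 3 of them share exons with another listed gene on the same strand. Ptp4a1 also overlaps a second annotated gene of its symbol, which is not among the genes listed. The median number of coding transcripts was 4 for the raised genes and 3 for all genes compared. The longest coding transcript was 3.66 times the shortest in the median raised gene. It was 3.34 times the shortest in the median lowered gene and 2.23 times in the median gene compared. These shares describe genes of a lone pair of libraries and have no replicate error.

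**Figure D5:**
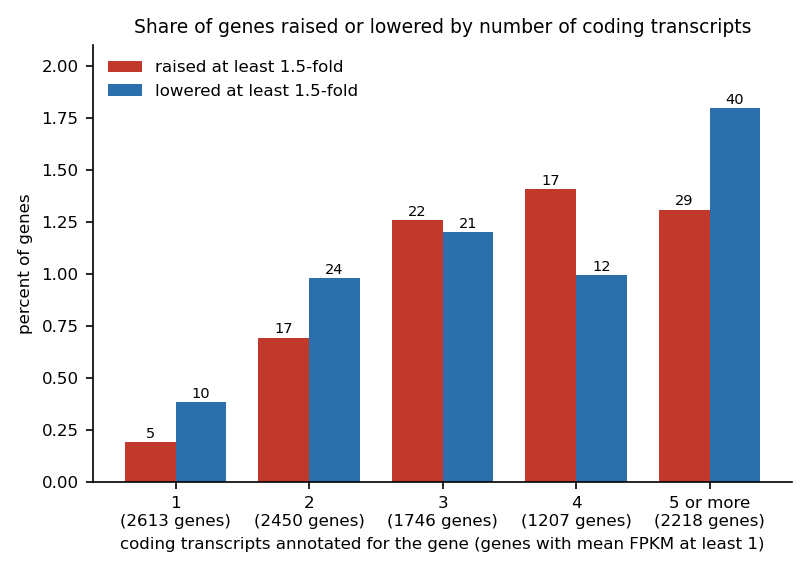
Percent of the genes compared that were raised (red) or lowered (blue) at least 1.5-fold, by the number of coding transcripts annotated for the gene, with the number of genes over each bar. Both shares are lowest for genes with 1 coding transcript, at 0.191% and 0.383%, and the bars have no replicate error.

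Read the other way, 0.191% of the genes with 1 coding transcript were raised (5 of 2613), 0.694% of those with 2 (17 of 2450), 1.26% of those with 3 (22 of 1746), 1.41% of those with 4 (17 of 1207) and 1.31% of those with 5 or more (29 of 2218). The 90 raised genes were 0.877% of all genes compared. The lowered genes showed the same direction, with 0.383% of the genes with 1 coding transcript, 0.98% with 2, 1.2% with 3, 0.994% with 4 and 1.8% with 5 or more, and 9.26% of the lowered genes had 1 coding transcript. The low share among genes with 1 coding transcript was thus seen in both directions. The level of the genes also differed with the number of coding transcripts, with a median mean of 14.2 FPKM for genes with 1 and 20.7 FPKM for those with 5 or more. The FPKM of a gene with several transcripts depends on the length it is divided by and on how reads are given to its transcripts, and the part of these and of the level in the shares was not tested.

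The promoters of the raised genes were searched for 17 known motifs. The largest excess over all promoters compared was 4.7 percentage points, and the largest deficit was -12.7 percentage points, for the ETS site. The sequences come from RefSeq (GRCm38.p6), 250 bases before to 50 bases after the start, and were found for 71 of the 90 raised genes and 8158 of the genes compared. Some of these starts lay far from the gene start in GENCODE, by 121591 bases for Rnf220, 14166 for Wdtc1 and 5787 for H6pd. Rnf220 is among the genes counted with an AP-1 site below. Nkiras2 (3711 bases away) and Rps2 (1947 bases away) are among those counted with an ETS site. Below are the 250 bases before the start of 4 raised genes, 5′ to 3′ on the strand of the gene. Each was picked as an example that holds a searched motif. The ETS site and the cyclic AMP response element were less common in the raised genes than in all genes compared. The promoters printed are therefore not typical of the raised genes. The capitals mark the AP-1 site in Zfp36l1 (chr12:80113014-80113263, minus strand), the cyclic AMP response element in Ppp1r15a (chr7:45526269-45526518, minus strand) and the ETS sites in Spata2 (chr2:167492875-167493124, minus strand) and Mul1 (chr4:138434422-138434671, plus strand), as the motif or its reverse complement.
Zfp36l1: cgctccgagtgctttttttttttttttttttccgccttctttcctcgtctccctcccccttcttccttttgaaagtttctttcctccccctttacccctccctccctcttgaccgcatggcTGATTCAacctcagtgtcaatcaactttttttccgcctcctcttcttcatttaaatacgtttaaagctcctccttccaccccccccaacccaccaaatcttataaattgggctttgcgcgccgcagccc
Ppp1r15a: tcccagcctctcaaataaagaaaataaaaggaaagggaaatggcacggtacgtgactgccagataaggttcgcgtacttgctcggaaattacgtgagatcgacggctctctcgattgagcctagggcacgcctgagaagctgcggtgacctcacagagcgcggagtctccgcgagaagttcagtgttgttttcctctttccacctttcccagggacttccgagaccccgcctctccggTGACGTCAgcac
Spata2: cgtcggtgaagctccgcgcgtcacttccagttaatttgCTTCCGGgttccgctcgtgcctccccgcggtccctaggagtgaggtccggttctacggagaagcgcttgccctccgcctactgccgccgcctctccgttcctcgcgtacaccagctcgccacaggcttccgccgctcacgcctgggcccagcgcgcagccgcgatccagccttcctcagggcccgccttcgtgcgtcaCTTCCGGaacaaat
Mul1: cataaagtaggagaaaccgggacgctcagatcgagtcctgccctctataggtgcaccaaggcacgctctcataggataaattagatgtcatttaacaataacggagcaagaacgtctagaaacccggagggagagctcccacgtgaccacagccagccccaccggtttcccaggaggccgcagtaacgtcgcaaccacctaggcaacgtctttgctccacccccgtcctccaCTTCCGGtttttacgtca

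Each motif was searched on both strands of the 300 bases and is given with the share of raised genes and of all genes compared. The ETS site (CCGGAAG) was less common in the raised genes, at 8.45% (6 of 71) against 21.1%, and stood at 19% in the lowered genes. The GC box (GGGCGG) was at 59.2% against 68.9% and the CCAAT box (CCAAT) at 29.6% against 39.3%. The AP-1 site (TGANTCA) was at 7.04% (5 of 71) against 4.43% and the core of the antioxidant response element (TGACNNNGC) at 19.7% against 15%. The cyclic AMP response element (TGACGTCA) was at 1.41% against 3.51%, and its core (TGACGT), which overlaps it, at 12.7% against 12.9%. The TATA box (TATAAA) was at 7.04% against 6.01%, the MYC E-box (CACGTG) at 11.3% against 10.9% and the hypoxia response core (ACGTG), which overlaps the E-box, at 26.8% against 27.1%. The TEAD site (GGAATG) was at 8.45% against 11.4%, the NRF1 motif (GCGCNTGCG) at 15.5% against 15.9%, the YY1 site (AAGATGG) at 7.04% against 7.88% and the STAT site (TTCNNNGAA) at 7.04% against 6.68%. The loosest of the motifs, that of p53, was at 60.6% against 55.9%, the serum response element at 2.82% against 1.42%, and its AT core was in 0 of 71 promoters against 0.0368%. These shares are counts over at most 71 promoters, and a match is a run of letters, not a bound site.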

How the data were processed

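RNA of 4T1 cells was sequenced in 2 libraries, 1 per condition. The authors deposited 1 FPKM value per gene and library, rounded to 2 decimals. The submitters' processing notes name TopHat2 2.1.1 and Bowtie2 2.2.8, and the quantification tool, genome build and strand setting are not given in the sources used here. All samples and columns were mapped from the labels. Symbols, positions, exons and coding transcripts came from GENCODE M21 (GRCm38), which holds 21848 of the 21911 identifiers. Fold changes are log2((oxalate + 1)/(PBS + 1)) over genes that averaged 1 FPKM or more, a scale with a pseudocount of 1 that understates the change of low genes. With 1 library per condition no test was made. Reads were estimated from FPKM, mean coding transcript length and the depth given by the spacing of low values (93 and 79 genes under 700 bases). Paralogs were the best other protein in blastp 2.17.0 (E-value limit 1e-20, at least 50% of the query covered). Promoters came from RefSeq. The steps were tested on simulated data. Any raised gene could be named, with fuller values for the largest changes, the highest levels, the genes at the limit, in the lists or sharing exons. The genes and lists were chosen with earlier results of these data known, and roles, families and printed promoters after the genes were seen. Alternatives were other pseudocounts, filters and thresholds, a rescaling, a GC correction, and leaving out predicted or overlapping genes. The work was done in Python 3.11.15 with pandas 2.3.3 and numpy 2.4.6, and scipy 1.17.1 and matplotlib 3.10.9.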

Additional observations from a re-analysis of the deposited data

How the results depend on the processing

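The number of raised genes, 90, was 141 with a pseudocount of 0.1 and 153 with 0.001, which by construction kept all 90 and added 51 and 63 genes. It was 24 at a 2-fold threshold and 236 at a 1.3-fold threshold, also by construction. Under the other 7 settings it lay between 66 and 100. Rescaling the oxalate library to a median of 0 gave the same 90 genes, and removing the median of each GC decile gave 87, of which 83 were among the 90. The median log2 fold change of the raised genes, 0.76, was 0.91 with a pseudocount of 0.1 and 0.93 with 0.001. The share with 1 coding transcript, 5.56%, lay between 3.03% and 9.93% with other filters, thresholds and pseudocounts, the highest with a pseudocount of 0.1. Counting transcripts of any kind, 2.22% of the raised genes had 1, against 7.7% of the genes compared. H2-Q1 had a larger fold than Plagl2 with a pseudocount of 0.1 (2.34 and 2.03 on the log2 scale) and of 0.001 (2.55 and 2.06). No paired analysis was possible because PBS and oxalate had 1 library each, and for the same reason no replicate could be left out. The estimated depth leaves genes near 1 FPKM with few reads, down to 39 in the PBS library among raised genes detected in it.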

Other observations

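Just under the limit on the mean, 512 genes lay between 0.5 and 1 FPKM. Of these, 8 were lower by the same fold, and 5, or 0.977%, were higher by it, a share near the 0.935% above the limit. Gpr146, an orphan G protein-coupled receptor, went from 0.31 to 1.33 FPKM. Rab3a, a small GTPase of regulated secretion, went from 0.23 to 0.9 FPKM. The others were Zscan2, a zinc finger gene (0.17 to 0.93 FPKM), Ttc16 (0.19 to 0.95 FPKM) and A930002H24Rik (0.18 to 1.06 FPKM), the only gene of the 5 with 1 coding transcript. These genes were named after their values were seen.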
